A study of Mus musculus with 12 samples.

Results

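The Schlafen genes of the mouse are a family of interferon-responsive genes, and 7 of them (Slfn1, Slfn2, Slfn3, Slfn4, Slfn5, Slfn8 and Slfn9) were taken by gene symbol from the 56748 genes of a deposited count matrix. All 7 members were found by their Ensembl identifiers, and all 7 were among the 15033 genes that passed the filter on low counts and were tested. The matrix holds bulk RNA sequencing of bone marrow-derived macrophages (BMDM) with 3 libraries in each of 4 groups. The study compared them to learn how IFNβ released by melanoma cells acts on macrophages, beside recombinant IFNβ.

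Every group started from bone marrow of wild-type C57BL/6J mice, grown with M-CSF at 20 ng/mL and turned M2-like with IL4 at 10 ng/mL for 48 hours. The treatment that followed lasted 72 hours. Untreated control cells received medium alone. eGFP supernatant came from YUMM5.2 eGFP cells, a mouse melanoma line with a Dox-dependent eGFP cassette, and Ifnb1eGFP supernatant came from the same line with a cassette for Ifnb1 and eGFP. Both donor lines are sorted pools of transduced cells that made their supernatant during 72 hours with Dox (1 μg/mL), which is not named in the treatment of the other groups. The dilution of Ifnb1eGFP supernatant was set to reach 1500 pg/mL of IFNβ, the concentration also used for rIFNβ, and that of eGFP supernatant followed it. The mice of the study were female and bought at 10 to 12 weeks of age. The number of marrow donors, their age at harvest and whether replicates were separate animals are not given in the sources used here. P-values therefore measure the spread between these libraries, which may be technical.

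Schlafen proteins share an N-terminal core domain that in several members can cleave transfer RNA, and they were first described in mice as regulators of thymocyte development and cell growth. The short members Slfn1 and Slfn2 consist of little more than this core. Slfn3 and Slfn4 carry an added middle region, and the long members Slfn5, Slfn8 and Slfn9 end in a domain related to helicases. Type I interferon acts through the receptor chains Ifnar1 and Ifnar2, the kinases Jak1 and Tyk2, and the factor ISGF3, which holds Stat2 and Irf9 and binds a DNA element called ISRE. Several Schlafen genes are textbook interferon-stimulated genes of macrophages.

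The members lie side by side within 267.0 kb of chromosome 11 (GRCm39, GENCODE M39 annotation, chr11:82842100-83109101). From left to right they are Slfn5 (82842100 to 82855666, + strand), Slfn9 (82868552 to 82882656, − strand), Slfn8 (82892984 to 82911669, − strand), Slfn2 (82955609 to 82961504, + strand), Slfn1 (83007615 to 83013496, + strand), Slfn4 (83066012 to 83081042, + strand) and Slfn3 (83082123 to 83109101, + strand). Their longest coding sequences have 337 codons in Slfn1, 378 in Slfn2, 602 in Slfn4, 640 in Slfn3, 884 in Slfn5 and 910 in each of Slfn8 and Slfn9, stop codon left out. The counts cover whole genes, so they say nothing about single exons or transcripts. Slfn10, a further Schlafen gene between Slfn8 and Slfn2, overlaps Slfn2 on the opposite strand, and the antisense gene Slfn5os overlaps Slfn5.

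The promoters are shown first, since the members rose together. For all 7 members RefSeq (GRCm38.p6) gives a window of 300 bases, from 250 before to 50 after an annotated start, and Slfn8 has 2 such windows whose starts lie 88 bases apart. An ISRE core, GAAANNGAAA on either strand, was found in the windows of 3 members, Slfn5, Slfn8 and Slfn9, and in 3.44% of 32851 promoters of the same length. The 160 bases before the start are printed for these, with the match in capitals (GAAAAAGAAA in Slfn5, and TTTCGTTTTC, the reverse strand of GAAAACGAAA, in the other two).
Slfn5 promoter, GRCm38.p6 chr11:82951942-82952101, + strand: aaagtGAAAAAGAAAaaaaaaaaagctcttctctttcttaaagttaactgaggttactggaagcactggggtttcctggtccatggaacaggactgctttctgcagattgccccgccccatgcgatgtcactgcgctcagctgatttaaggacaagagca
Slfn8 promoter, GRCm38.p6 chr11:83020811-83020970, − strand: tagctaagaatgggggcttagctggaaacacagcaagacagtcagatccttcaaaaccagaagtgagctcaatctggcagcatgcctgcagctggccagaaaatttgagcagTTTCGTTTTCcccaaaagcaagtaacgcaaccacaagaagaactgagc
Slfn9 promoter, GRCm38.p6 chr11:82991831-82991990, − strand: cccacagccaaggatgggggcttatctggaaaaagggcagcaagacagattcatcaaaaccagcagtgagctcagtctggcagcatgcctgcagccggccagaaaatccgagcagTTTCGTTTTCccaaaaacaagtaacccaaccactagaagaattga

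The match began 155 bases before the start in Slfn5, 48 before the upstream start of Slfn8 and 45 before that of Slfn9. The Slfn8 and Slfn9 windows were 84% identical over their length by global alignment, against 63% for Slfn9 with the other Slfn8 window and 55.7% to 62.3% for the other pairs of members' windows. The gamma-activated site TTCNNNGAA, which reads the same on both strands, was in none of the members' windows and in 8.3% of all promoters. These letters were absent from these windows alone, which says nothing of what binds the genes elsewhere.

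The windows of Slfn1, Slfn2, Slfn3 and Slfn4 held no exact ISRE core, but all 4 held the run ACTTCCTGG, which began at position −74 from the start in Slfn1, −55 in Slfn2, −42 in Slfn3 and −73 in Slfn4. It is the longest run on the sense strand common to these windows, was picked after they had been compared, and is present on either strand in 0.843% of all promoters. In Slfn2 it overlaps a match to GGAANNGAAA on the reverse strand, a composite element for ETS and IRF factors that was also added after the windows were seen and is in 2.72% of all promoters. The 160 bases before the start of Slfn1 and Slfn4, the members with the largest rises, are printed with the shared run in capitals.
Slfn1 promoter, GRCm38.p6 chr11:83116660-83116819, + strand: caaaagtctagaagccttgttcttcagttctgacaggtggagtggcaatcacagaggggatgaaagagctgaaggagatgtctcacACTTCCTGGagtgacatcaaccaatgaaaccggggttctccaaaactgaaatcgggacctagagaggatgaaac
Slfn4 promoter, GRCm38.p6 chr11:83175026-83175185, + strand: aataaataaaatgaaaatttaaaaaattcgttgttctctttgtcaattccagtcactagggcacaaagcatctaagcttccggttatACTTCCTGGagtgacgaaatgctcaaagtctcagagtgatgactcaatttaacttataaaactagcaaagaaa

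Library totals ran from 31526034 to 45348457 counts. The macrophage markers Csf1r, Adgre1, Cd68, Itgam, Mertk and Lyz2 were read in every library. Their summed level was 14063 to 18394 CPM (counts scaled to a common library total) in the 6 libraries without IFNβ. In the 6 libraries with IFNβ it was 8515 to 9286 CPM. The markers did not vary alike over the 12 libraries. Lyz2 ran from 3441 to 12828 CPM and Itgam from 317 to 1627 CPM. Csf1r ran from 1023 to 1189 CPM, Adgre1 from 1484 to 1836, Cd68 from 1172 to 1868 and Mertk from 102 to 178. The part of the shift in the sum in the Schlafen values was not tested. Of the M2-like markers, Mrc1, Chil3 and Retnla had at least 45.4 CPM in every library, while Clec10a had 5.63 to 11.6 CPM, Mgl2 2.61 to 5.67 CPM and Arg1 0.208 to 0.877 CPM. T cell, B cell, NK cell, dendritic cell and melanoma cell markers summed to at most 1.19 CPM per list in any library, and fibroblast markers to 27.6 to 77.6 CPM, with overlapping ranges in all 4 groups. Neutrophil markers, chiefly S100a8, summed to 4.35 to 5.88 CPM in the 6 unexposed libraries and 0.267 to 1.06 CPM in the 6 exposed ones, and their part in the Schlafen values was not tested. In bulk RNA, fewer cells of a type and less RNA per cell cannot be told apart.

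One library stood apart on interferon-responsive genes. Over the 442 genes outside the family that passed the study's thresholds as higher with rIFNβ than in untreated control (log2 fold change 2 or more, adjusted p 0.01 or less), eGFP supernatant replicate 2 lay a median of 0.43 (log2) above the other 2 libraries of its group. The other 11 libraries lay between −0.25 and 0.17 of theirs. The members themselves were 0.63 to 2.88 (log2) higher in that library than in the other 2. The members' comparisons that use the eGFP supernatant group are therefore given with and without it. By the chi-square over all genes tested the widest pair lay elsewhere, between Ifnb1eGFP supernatant replicates 1 and 2 (55.8 per degree of freedom, against 11.4 to 19.6 within the eGFP supernatant group). The origin of its higher values was not tested.

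**Figure D1:**
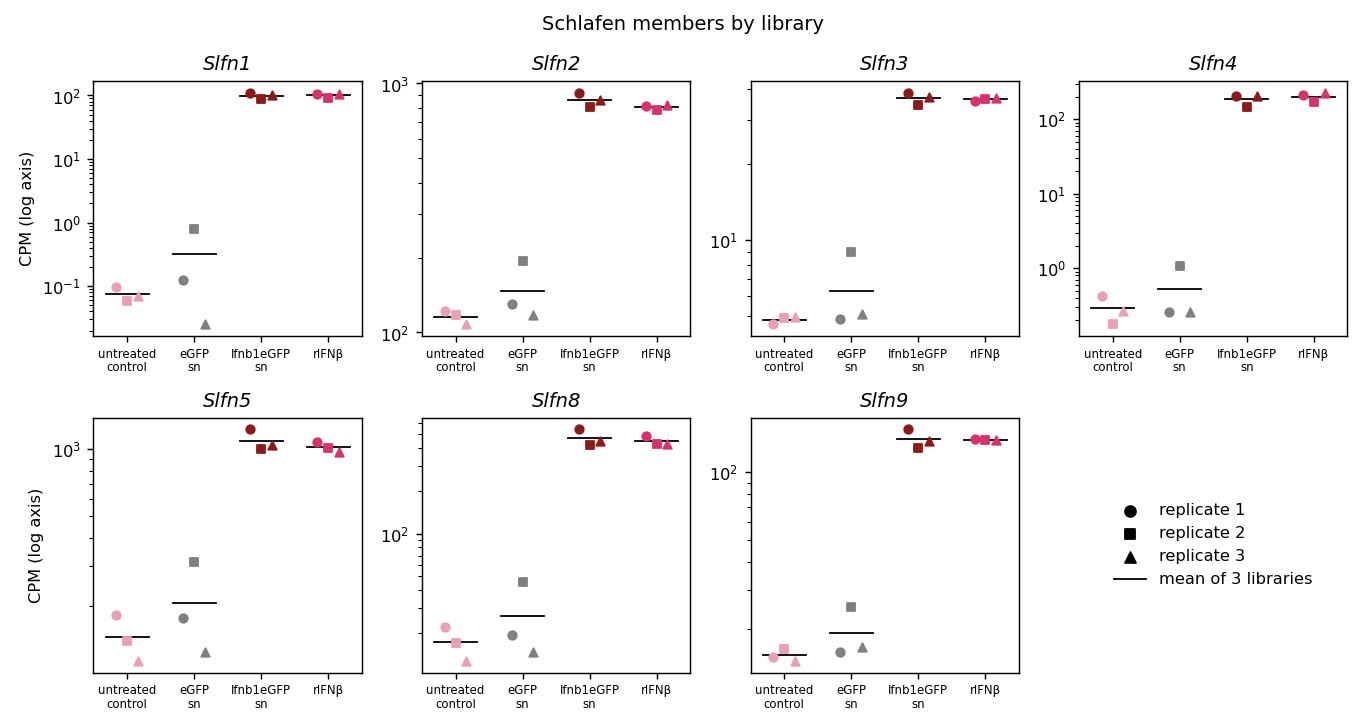
CPM of each Schlafen member by library on a log axis, 1 panel per member, with circles, squares and triangles for replicates 1, 2 and 3 and a line at the mean of the 3 libraries of a group. All 6 libraries with IFNβ lie above all 6 without it in every panel, and eGFP supernatant replicate 2 (grey square) is the highest library without IFNβ in every panel. The share of all genes tested that separate in this way is not given here.

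All 7 members were higher with IFNβ, whether it came from the melanoma cells or as a recombinant protein. At an adjusted p of at most 0.05 all 7 rose in Ifnb1eGFP supernatant against eGFP supernatant, where 30.1% of the genes tested rose, and all 7 rose with rIFNβ against untreated control, where 30.7% did. At the study's thresholds all 7 again passed in both, against 2.77% and 2.99% of the genes tested. The median log2 fold change of the members was 2.87 with the supernatant and 3.19 with rIFNβ, and that of all genes tested was 0.03 and 0.04. The 2 comparisons share no libraries, but both come from the fit over all 12 libraries and share its estimate of the spread.

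Slfn1, the shortest member, was close to absent without IFNβ. It had 3, 2 and 3 counts in the untreated control libraries and 5, 33 and 1 in the eGFP supernatant libraries. With Ifnb1eGFP supernatant it had 4387, 3482 and 4688 counts, and with rIFNβ 3537, 4079 and 4232. The 6 exposed libraries were thus at 86.5 to 110.9 CPM and the 6 unexposed ones at 0.0251 to 0.804 CPM, with no overlap. From summed counts the rIFNβ libraries held 1357 times the untreated control level, with a 95% exact counting interval of 688.5 to 3144 that covers counting error only. The same ratio for the supernatants was 308.2 (225.3 to 433.6), and 1321 (606.6 to 3600) without eGFP supernatant replicate 2. The fitted log2 fold changes were 10.35 ± 0.44 (SE) for rIFNβ and 8.25 ± 0.36 for Ifnb1eGFP supernatant, with edgeR adjusted p of 5.17e-09 and 6.72e-09, and at so few counts they depend on the small count added by the fit.

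Slfn4, a member of the middle length class studied mainly in myeloid cells, was the other gene that went from a trace to a high level. Its expected counts were 13.4, 6.04 and 11.34 in untreated control and 10.24, 44.33 and 10.31 with eGFP supernatant. They were 8210, 5844 and 9360 with Ifnb1eGFP supernatant and 7048, 7516 and 9021 with rIFNβ. The summed counts with rIFNβ were 720.3 times those of untreated control (95% counting interval 504.5 to 1068), and those with Ifnb1eGFP supernatant 350.2 times those of eGFP supernatant (274.1 to 454.8). Again 1 control library set the size of the second ratio, which was 738.8 (478.3 to 1210) without eGFP supernatant replicate 2. The fitted log2 fold changes were 9.49 ± 0.37 and 8.44 ± 0.34, with adjusted p of 2.88e-09 and 3.95e-09.

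Slfn3, the neighbour of Slfn4 in the cluster and its partner in length, behaved differently. It was measurable in every library, at 4.64, 4.93 and 4.94 CPM in untreated control and 4.88, 8.98 and 5.08 CPM with eGFP supernatant. With Ifnb1eGFP supernatant it stood at 38.6, 34.4 and 37.0 CPM and with rIFNβ at 35.9, 36.5 and 36.6 CPM. The exposed libraries did not overlap the unexposed ones. The rise was 5.79-fold with the supernatant (log2 2.53 ± 0.18, edgeR adjusted p = 3.25e-07), 7.35-fold without eGFP supernatant replicate 2, and 7.50-fold with rIFNβ (log2 2.91 ± 0.18, adjusted p = 1.25e-07).

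Slfn2, the second short member, is needed by T cells and monocytes to stay quiescent and can protect transfer RNA from cleavage. It was already well expressed without IFNβ, at 122.4, 117.1 and 107.8 CPM in untreated control and 130.5, 192.9 and 118.0 CPM with eGFP supernatant. It reached 919.1, 801.3 and 854.5 CPM with Ifnb1eGFP supernatant and 811.4, 785.1 and 822.6 CPM with rIFNβ. These are rises of 5.83-fold (log2 2.54 ± 0.15, adjusted p = 8.68e-08) and 6.97-fold (log2 2.80 ± 0.15, adjusted p = 3.88e-08), and the lowest exposed library was well above the highest unexposed one. The first was 6.91-fold without eGFP supernatant replicate 2.

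Slfn5, a long member found in the nucleus, was abundant in every library. It was at 181.6, 139.7 and 113.4 CPM in untreated control and at 176.8, 313.4 and 123.8 CPM with eGFP supernatant. With Ifnb1eGFP supernatant it was at 1221, 996.7 and 1040 CPM and with rIFNβ at 1071, 1009 and 963.5 CPM. Its rises, 5.30-fold (log2 2.41 ± 0.29, adjusted p = 2.44e-05) and 7.0-fold (log2 2.81 ± 0.29, adjusted p = 7.55e-06), had the largest adjusted p of the members in both comparisons, with libraries of both control groups spread more widely than for Slfn2, Slfn3 and Slfn9. The rise between supernatants was 7.22-fold without eGFP supernatant replicate 2.

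Slfn8 and Slfn9, the pair of long members with like promoters, differed in the size of their rise. Slfn8 went from 22.2, 17.1 and 12.7 CPM in untreated control to 485.1, 426.7 and 425.3 CPM with rIFNβ, and from 19.4, 45.5 and 14.8 CPM with eGFP supernatant to 542.2, 419.8 and 449.2 CPM with Ifnb1eGFP supernatant. Slfn9 went from 15.0, 16.4 and 14.4 CPM to 140.0, 138.9 and 139.7 CPM, and from 15.8, 25.2 and 16.6 CPM to 155.4, 127.8 and 137.3 CPM. Slfn8 therefore rose 25.8-fold with rIFNβ (log2 4.69 ± 0.38, adjusted p = 1.04e-06) and 17.7-fold with the supernatant (log2 4.15 ± 0.37, adjusted p = 2.41e-06), the latter 27.5-fold without eGFP supernatant replicate 2. Slfn9 rose 9.15-fold (log2 3.19 ± 0.15, adjusted p = 1.36e-08) and 7.29-fold (log2 2.87 ± 0.15, adjusted p = 3.18e-08), the latter 8.63-fold without that library.

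**Figure D2:**
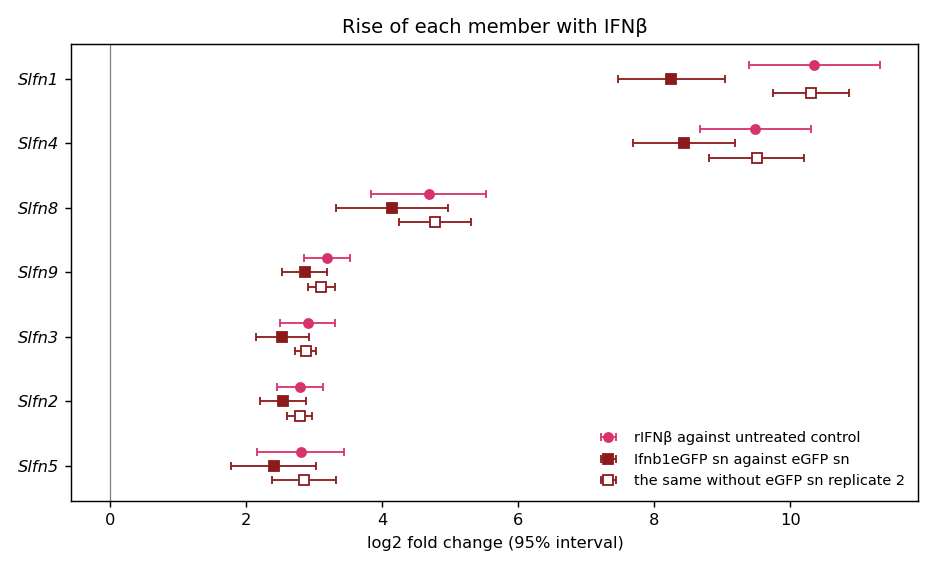
Log2 fold change of each member with its 95% interval for rIFNβ against untreated control (circles), Ifnb1eGFP against eGFP supernatant (filled squares) and the latter without eGFP supernatant replicate 2 (open squares). Slfn1 and Slfn4 lie above 8 in each, Slfn8 between 4.15 and 4.78, and the other 4 between 2.41 and 3.19.

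Whether members differed in their rise was tested on the log2 ratio of 2 members in the same library, with IFNβ labels permuted among libraries with supernatant and among those without. Of 21 pairs, 17 differed at an adjusted p of at most 0.05. For 16 of them the exact permutation p was 0.005, the smallest that 400 relabellings allow, and 0.00656 after adjustment. Slfn8 rose by 1.47 (log2) more than Slfn9, Slfn1 by 4.71 and Slfn4 by 4.44 more than Slfn8, and Slfn4 by 6.21 more than its neighbour Slfn3. Slfn9 rose by slightly more than Slfn5 (log2 difference of Slfn5 minus Slfn9 −0.37, exact permutation test, adjusted p = 0.0371). Slfn1 and Slfn4 enter these values with a prior count of 2, and 17 pairs differed with a prior count of 0.5 as well. Without eGFP supernatant replicate 2, an alternative added after seeing the data, 17 of 21 pairs differed, and no difference moved by more than 0.375 (log2).

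For 4 pairs no difference in the rise was detected at this size of design. Slfn1 minus Slfn4 was 0.27 (adjusted p = 0.397, exact permutation test), and between 0.03 and 0.43 when each library was left out in turn. The 3 pairs among Slfn2, Slfn3 and Slfn5 differed by −0.05 (Slfn2 minus Slfn3), 0.02 (Slfn2 minus Slfn5) and 0.07 (Slfn3 minus Slfn5), with adjusted p of 0.459, 0.875 and 0.661 in exact permutation tests. Averaged over both IFNβ sources, the order of the rises (log2, prior count of 2) was Slfn1 at 9.22, Slfn4 at 8.95, Slfn8 at 4.51, Slfn9 at 3.04, Slfn3 at 2.74, Slfn2 at 2.69 and Slfn5 at 2.67. The last 3 were not told apart, nor were the first 2. Without eGFP supernatant replicate 2 the values were 9.70 for Slfn1, 9.27 for Slfn4, 4.75 for Slfn8, 3.15 for Slfn9, 2.88 for Slfn3, 2.85 for Slfn5 and 2.79 for Slfn2.

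Levels between members were compared per kilobase of exon. Without treatment Slfn2 led with 58.1 ± 3.70 CPM per kb (SD, n = 3), followed by Slfn5 with 22.4 ± 5.31, Slfn8 with 4.2 ± 1.15, Slfn9 with 2.30 ± 0.15 and Slfn3 with 0.73 ± 0.03. Slfn4 at 0.07 ± 0.03 and Slfn1 at 0.04 ± 0.01 CPM per kb came last. With Ifnb1eGFP supernatant the order became Slfn2 (431 ± 29.6), Slfn5 (168 ± 18.3), Slfn8 (114 ± 15.5), Slfn1 (49.3 ± 6.11), Slfn4 (42.0 ± 7.90), Slfn9 (21.1 ± 2.11) and Slfn3 (5.55 ± 0.32), and in rIFNβ it was the same. Per kilobase, Slfn1 and Slfn4 thus passed Slfn9 and Slfn3, and the ranges of Slfn1 and Slfn4 overlapped each other in both exposed groups. The length counts all annotated exons of a gene, whether or not they were used in these cells. In CPM, Slfn1 stayed below Slfn9, at 99.7 against 140.2 with Ifnb1eGFP supernatant and 101.2 against 139.5 with rIFNβ.

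The summed level of the 7 members was 253.6 to 346.4 CPM in untreated control and 278.5 to 587.8 CPM with eGFP supernatant. It was 2612 to 3194 CPM with Ifnb1eGFP supernatant and 2657 to 2857 CPM with rIFNβ. The family also had another make-up with IFNβ, given here as shares of the summed level per length (mean ± SD, n = 3) without a test. Slfn2 made up 66.4% ± 3.49 of it in untreated control and 51.1% ± 1.07 with rIFNβ. Slfn1 had 0.0421% ± 0.0080 and 6.31% ± 0.35, Slfn4 had 0.0741% ± 0.0267 and 5.77% ± 0.74, and Slfn8 had 4.73% ± 0.77 and 13.6% ± 0.73. The ranges of these 4 members did not overlap between the groups, nor did those of Slfn5, at 25.25% ± 3.10 and 19.79% ± 0.95. Those of Slfn9, at 2.64% ± 0.29 and 2.66% ± 0.08, and of Slfn3, at 0.84% ± 0.12 and 0.70% ± 0.03, did overlap.

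**Figure D3:**
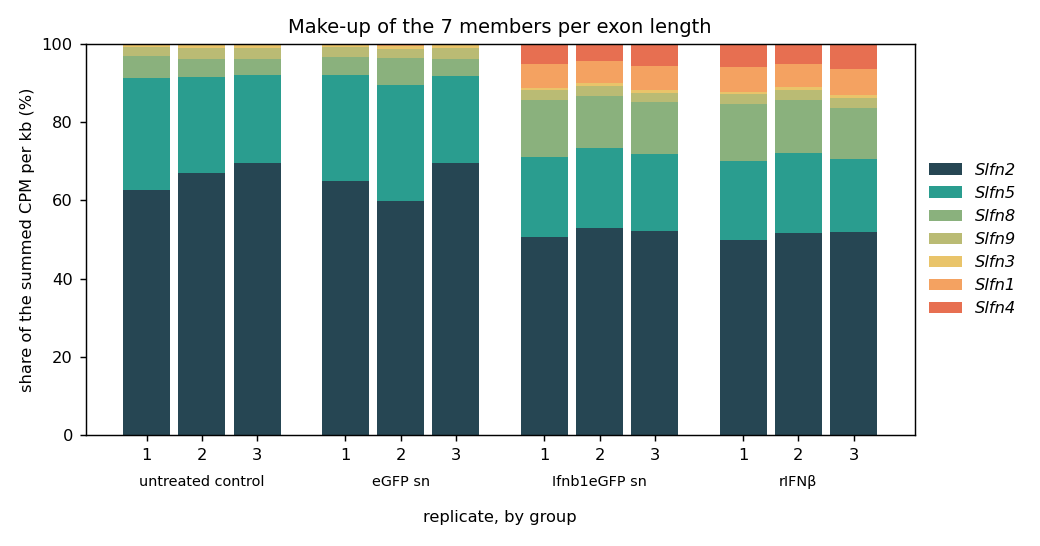
Share of each member in the summed CPM per kilobase of the 7 members, 1 stacked bar per library, by group and replicate. Slfn2 makes up 59.7% to 69.6% of each bar without IFNβ and 49.9% to 53.05% with it, and Slfn1 and Slfn4 are visible with IFNβ alone.

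Tumor cell supernatant without Ifnb1 moved no member past the test. Against untreated control 0 of the 7 members were called (smallest adjusted p = 0.577, edgeR), where 0.246% of the genes tested were called higher and 0.0532% lower. Unadjusted p was under 0.05 for 2 members, Slfn2 and Slfn9, and for 1203 of all genes. Log2 fold changes ran from 0.33 for Slfn9 to 2.08 for Slfn1, all of them positive, and rested on eGFP supernatant replicate 2. Without that library they lay between −0.14 (Slfn4) and 0.10 (Slfn2).

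No member was told apart between tumor-derived and recombinant IFNβ. Between Ifnb1eGFP supernatant and rIFNβ 0 of 7 were called (smallest adjusted p = 0.835), 0 had an unadjusted p under 0.05, and 0.14% of the genes tested were called higher and 0.02% lower. The log2 differences ran from −0.12 (Slfn4) to 0.10 (Slfn5). The 95% intervals were widest for Slfn8, from −0.63 to 0.79, and narrowest for Slfn9, from −0.29 to 0.31, and differences of up to those sizes remain possible. These intervals take their spread from all 12 libraries. Without eGFP supernatant replicate 2, which is in neither group compared here, the interval was −0.29 to 0.45 for Slfn8 and −0.15 to 0.16 for Slfn9. Whether the rise differed between the supernatants and the recombinant protein was also tested as an interaction, in which 0 of 7 members and 0% of the genes tested were called. DESeq2 called 0 of 7 members in each of these 3 comparisons. The members' interaction values were all negative, from −2.10 for Slfn1 to −0.26 for Slfn2 (adjusted p = 0.926 each), and without eGFP supernatant replicate 2 they lay between −0.08 and 0.09.

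**Figure D4:**
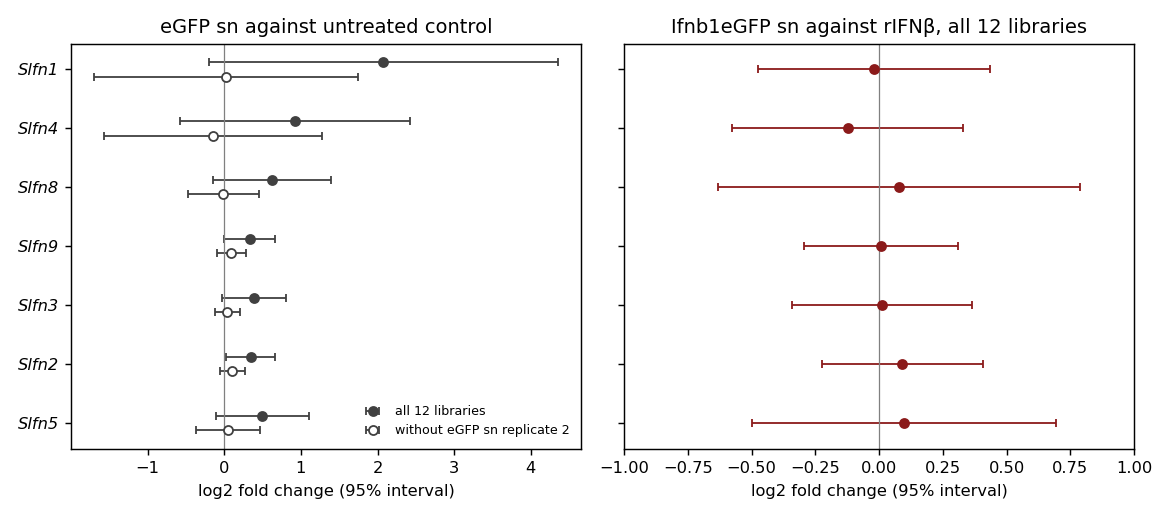
Log2 fold changes with 95% intervals for eGFP supernatant against untreated control (left, open circles without eGFP supernatant replicate 2) and Ifnb1eGFP supernatant against rIFNβ (right). On the left the values move from 0.33 to 2.08 to between −0.14 and 0.10 when that library is left out, and on the right every interval includes 0.

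Across the 12 libraries the members rose and fell together, with Pearson r of log2 CPM from 0.9861 (Slfn4 and Slfn5) to 0.9986 (Slfn2 and Slfn9), a description over libraries that fall into exposed and unexposed sets. The 3 genes outside the family with patterns most like a member's had r from 0.9984 to 0.9997. For Slfn1 they included Zbp1, a sensor of nucleic acids, and Herc6. Trim34a, Dtx3l and Ddx60 were closest to Slfn2, Ifi47, Sp100 and the RNA sensor Ifih1 to Slfn3, and the restriction factor Ifitm3, Sp110 and Trim21 to Slfn4. Gvin2, H2-T24 and the kinase Eif2ak2 were closest to Slfn5, Gm5431, Ifi211 and Ifi204 to Slfn8, and Nt5c3, Trim34a and Sp110 to Slfn9. Their log2 fold changes with rIFNβ ran from 2.09 (Eif2ak2) to 6.13 (Zbp1).

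The genes upstream of the family on the interferon route were read from a list. Of its 9 genes, all tested, 6 rose and 1 fell in Ifnb1eGFP supernatant against eGFP supernatant, and 7 rose and 2 fell with rIFNβ, with medians of 1.5 and 1.79 (log2). Of all genes tested 30.1% rose and 25% fell between the supernatants, and 30.7% rose and 24.6% fell with rIFNβ. Without eGFP supernatant replicate 2 the calls of this list were unchanged between the supernatants, as were those of the lists that follow but for 2 genes, Rnh1 and Top2a, which had been called lower (adjusted p = 0.0602 and 0.137 without it). Top2a is named because its call changed. Ifnar1 fell, by 0.55 ± 0.04 and 0.60 ± 0.04 on the log2 scale (adjusted p = 2.93e-07 and 1.39e-07), while Ifnar2 rose by 0.57 ± 0.07 and 0.73 ± 0.07. The ISGF3 parts Stat2 and Irf9 rose, with log2 fold changes of 3.08 and 3.69 for Stat2 and 1.5 and 1.79 for Irf9. So did Usp18 (4.30 and 5.88) and Socs1 (2.04 and 2.59), which restrain the receptor. Without eGFP supernatant replicate 2 the values between the supernatants were 3.63 for Stat2, 1.73 for Irf9, 5.51 for Usp18 and 2.16 for Socs1. Tyk2 rose with rIFNβ (0.41, adjusted p = 0.00329) and gave 0.19 (adjusted p = 0.125) with the supernatant. Jak1 fell with rIFNβ (−0.15, adjusted p = 0.0326) and gave 0.00 (adjusted p = 0.973) with the supernatant. The log2 fold changes of Slfn1 and Slfn4 exceeded those of every gene of this list in both comparisons, a difference that was not itself tested.

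Genes that cut or protect transfer RNA, the process Schlafen proteins act in, had small log2 fold changes. Of 11 listed, 7 were tested, of which 2 rose and 2 fell with Ifnb1eGFP supernatant and 3 rose and 1 fell with rIFNβ, with medians of −0.03 and 0.05. Between the supernatants these shares are near those of all genes tested. Elac1, which repairs cleaved transfer RNA, rose by 0.47 ± 0.05 and 0.45 ± 0.05 (log2). Ang, the ribonuclease angiogenin, fell with the supernatant (−0.67 ± 0.19, adjusted p = 0.0114) and gave −0.38 with rIFNβ (adjusted p = 0.136). Its inhibitor Rnh1 fell with the supernatant (−0.21, adjusted p = 0.0244) and gave −0.14 (adjusted p = 0.116) with rIFNβ. Trdmt1, a transfer RNA methyltransferase, rose with rIFNβ (0.32, adjusted p = 0.0127) and gave 0.21 (adjusted p = 0.0789) with the supernatant. Nsun2, another, fell with rIFNβ (−0.11, adjusted p = 0.0441) and gave −0.03 (adjusted p = 0.553) with the supernatant, and Elac2 was called in neither (−0.04 and 0.05). Ang2, Ang4, Ang5 and Ang6 had at most 8 counts in any library.

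Growth arrest and cycling genes, chosen because Slfn2 is tied to quiescence, were called in both directions, as were genes at large. Of 16 tested, 3 rose and 6 fell with Ifnb1eGFP supernatant and 4 rose and 4 fell with rIFNβ. The medians were −0.05 and 0.07 (log2). For all genes tested the shares were 30.1% higher and 25% lower between the supernatants, and 30.7% and 24.6% with rIFNβ. The 4 with the smallest adjusted p were the cyclin Ccnd2, which rose by 1.90 ± 0.10 and 1.92 ± 0.10, Klf4, which fell by 1.15 ± 0.09 and 1.25 ± 0.09, Foxp1, which rose by 0.41 ± 0.04 and 0.46 ± 0.04, and Ccnb1, a cyclin of mitosis, which fell by 0.94 ± 0.11 and 0.53 ± 0.11.

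Of the other genes around the members, Slfn10 rose in both comparisons. Lying inside the cluster, it rose by 1.71 ± 0.10 and 1.66 ± 0.10 (log2, adjusted p = 5.54e-08 and 6.42e-08), from 30.5 ± 1.87 CPM in untreated control to 96.2 ± 4.81 CPM with rIFNβ. Slfn14, 56.8 kb beyond Slfn3, and Slfnl1 on chromosome 4 had at most 2 counts in any library. The noncoding gene Slfnlnc, 5.3 kb beyond Slfn3 and named here after its values were seen, stood at 36.5 to 42.2 CPM in all 12 libraries. Of 11 protein-coding genes within 200 kb of the cluster, 8 were tested, of which 1 rose and 1 fell between the supernatants and 2 rose and 1 fell with rIFNβ, no larger a share than of all genes tested. Rad51d rose in both comparisons (0.37 ± 0.08 and 0.52 ± 0.08, adjusted p = 0.00227 and 0.000192), and Rffl fell in both (−1.15 ± 0.12 and −1.19 ± 0.12, adjusted p = 9.07e-06 and 7.24e-06). Cct6b, at no more than 12 counts, was called with rIFNβ (1.22, adjusted p = 0.0184) and gave −0.64 with the supernatant. Zfp830, Lig3, Nle1 and Ap2b1 were called in neither, and Fndc8, Unc45b and Rasl10b were too low to test.

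**Figure D5:**
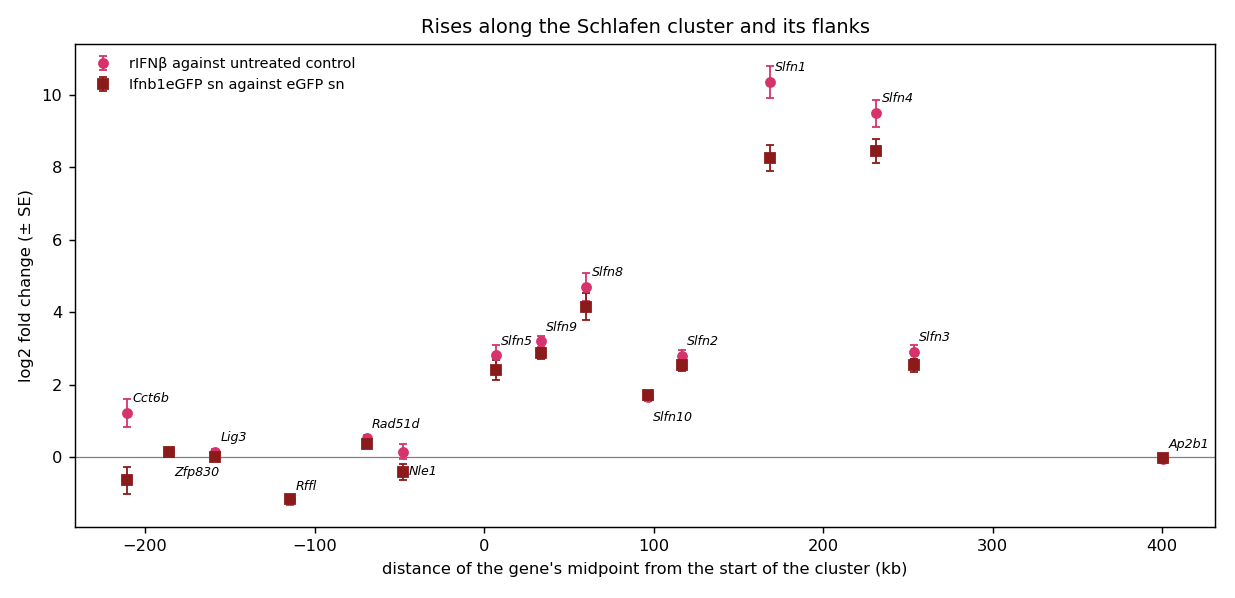
Log2 fold change (± SE) of the tested genes named here in and around the Schlafen cluster against the distance of each gene's midpoint from the start of the cluster in kb, for rIFNβ against untreated control (circles) and Ifnb1eGFP against eGFP supernatant (squares). The 7 members and Slfn10 lie at 1.66 or higher, and the 7 flanking genes shown between −1.19 and 1.22.

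Members share stretches of sequence, so the authors' counting may have divided some reads between them. Of the 50-base words in its exons, Slfn8 shared 9.22% with Slfn9 and 10% with Slfn10, Slfn4 shared 5.59% with Slfn3, and Slfn2 shared 3.55% and Slfn1 0.544% with Slfn4. With the counts of Slfn8 and Slfn9 summed, the log2 fold changes were 3.74 with Ifnb1eGFP supernatant and 4.17 with rIFNβ, and with those of Slfn3 and Slfn4 summed they were 5.02 and 5.54. Slfn5 shared 17.6% of its words with the antisense gene Slfn5os. The use of strand in counting is not stated, so reads within these shared stretches cannot be told apart. Slfn2 and Slfn10 overlap as annotated genes, but the words of Slfn2 shared with any other gene, 3.55%, were those shared with Slfn4. Slfn5os itself held at most 42.56 expected counts in any library.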

How the data were processed

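RNA of 12 BMDM libraries was prepared with a kit that keeps strand information and sequenced by the authors, who deposited 1 matrix of RSEM (1.3.3) expected counts per gene, not normalized. The submitters' notes name both GRCm39 and mm10, which are different builds, so positions were taken from GENCODE M39 on GRCm39 by Ensembl identifier (56017 of 56748 identifiers matched). Of all values 12% were not whole, and counts were rounded. Library totals of 31526034 to 45348457 left Slfn1 and Slfn4 with few counts without IFNβ, where precision is lowest. Replicates differed by more than sampling noise (chi-square per degree of freedom 5.52 to 55.8 over 12 pairs).

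Genes passing filterByExpr (15033) were fitted over all 12 libraries with edgeR 4.0.16 (R 4.3.3), with TMM scaling and the quasi-likelihood test, and p-values were adjusted by Benjamini-Hochberg over all genes tested. SE is the absolute log2 fold change divided by the square root of F. Alternatives were DESeq2 1.42.0, other scalings, filters and rounding, a replicate block, summed counts of similar members and each library left out. Pairs of members were compared by a two-sided exact permutation test on log2 CPM (prior count of 2), adjusted over 21 pairs. Scripts were tested on simulated data.

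The members, gene lists and tests were chosen with earlier results of these data known. Named were all members, other Schlafen genes, genes within 200 kb, every gene of lists with at most 10 genes tested and otherwise the 4 with the smallest adjusted p between supernatants, and the 3 genes with the highest Pearson r to each member. Some genes that this rule names are counted but not reported here. Promoter letters were searched and aligned with Biopython 1.88. The composite element and the common run were chosen after the windows were seen.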

Additional observations from a re-analysis of the deposited data

How the results depend on the processing

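The number of members called, 7, 7, 0, 0 and 0 in the 5 comparisons, was the same under every alternative run, and the members' log2 fold changes with IFNβ were positive in all of them. Some values changed sign, none of them called. Between Ifnb1eGFP supernatant and rIFNβ, Slfn9 gave −0.00069 with library totals only, and Slfn3 gave −0.10 with Slfn3 and Slfn4 summed. Leaving out 1 library at a time, this comparison gave −0.099 to 0.073 for Slfn1, −0.020 to 0.056 for Slfn3, −0.24 to 0.025 for Slfn4, −0.032 to 0.15 for Slfn8 and −0.069 to 0.069 for Slfn9. For eGFP supernatant against untreated control the ranges were −0.14 to 1.26 for Slfn4 and −0.013 to 0.91 for Slfn8. For the interaction they were −1.38 to 0.019 for Slfn4, −0.66 to 0.045 for Slfn5 and −0.83 to 0.091 for Slfn8. For the differences in rise they were −0.0569 to 0.10 for Slfn2 minus Slfn5 and −0.033 to 0.16 for Slfn3 minus Slfn5. The causes were not tested. Over all genes, calls higher with eGFP supernatant than in untreated control numbered 37, against 133 by DESeq2, 67 without the filter, 89 with the block, 17 with only the groups compared and 15 to 56 with a library left out. Calls higher with Ifnb1eGFP supernatant than with rIFNβ numbered 21, against 95, 35, 41, 2 and 4 to 194, the last without Ifnb1eGFP supernatant replicate 2, where lower calls went from 3 to 857. The interaction gave 0 calls over all genes by edgeR, 1 lower call by edgeR without the filter, and 10 higher and 6 lower by DESeq2. Libraries with the same replicate number had deviations that correlated with r of 0.0582 to 0.252 over 18 pairs, 13 of them above 0.1, and 12 of 12 libraries were closest to their own number, which is a hint from the data and not the design. With the replicate block 7, 7, 0, 0 and 0 members were called, and calls higher between the supernatants went from 4520 to 4848 genes. Depth limits the size of the Slfn1 and Slfn4 rises, which rest on 8 and 30 summed counts in untreated control.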
